A study of Danio rerio with 16 samples.

Results

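The 3 biological samples of whole zebrafish embryos at 24 hours post fertilization (hpf) were compared with each other, gene by gene, to find which gene families were stable between them and which varied most at equal expression. They are the 3 samples of that stage that came with a count file, out of 16 sample records in the series, of which 7 have count files and 12, 4 for each sample, are of this stage. All 28491 gene IDs of the count tables were read, of which 23845 had a count in at least 1 sample and 18316 had enough reads to be tested. The embryos were wild type and of the AB laboratory strain, with no mutation, transgene or treatment named in the labels. The labels call each a biological sample of whole embryos, but the number of embryos behind each RNA, and whether the samples came from separate clutches or days, cannot be read from the labels. The p-values below therefore measure the spread between these 3 samples, which are called samples 1, 2 and 3 by the labels' numbers.

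The zebrafish embryo at 24 hpf has its body axis laid down and is still forming its last somites at the tail end, its muscle has begun to twitch, its first blood circulates, and its lens fibres, hatching gland and yolk layer are making their own large sets of proteins. Genes of this stage differ in how fast they move. Parts of the basic machinery of every cell are kept at steady levels, tissue proteins accumulate or decline by the hour, and the immediate early, heat shock and light-responsive clock genes answer to stimuli within minutes to hours. In RNA from whole embryos, fewer cells of a type and less RNA per cell cannot be told apart.

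The counts on genes came to 41607139, 40899061 and 44962951 reads in samples 1, 2 and 3, so a single read was worth about the same in each. Levels are given in CPM, a gene's reads relative to all reads counted on genes in its library, scaled with trimmed mean of M values (TMM) factors of 1.02, 1.02 and 0.965. Markers of the labelled tissue were present in all 3 samples. The keratin krt4 of the skin lay between 13702 and 16247 CPM, the muscle actin actc1b between 3553 and 6361, the neuronal RNA-binding protein elavl3 between 75.9 and 105, the notochord factor ntla between 41.3 and 43.4, the embryonic globin hbae3 between 363 and 555 and the hatching enzyme he1a between 360.4 and 1273. The lens marker cryaa was low, with 17, 8 and 13 counts. Photoreceptor and pancreatic genes of later life were at or near background. The rod opsin rho had 3, 0 and 0 counts, and the pancreatic enzyme gene ctrb1 had 0, 0 and 1. The ultraviolet opsin opn1sw1 had 0 counts in each sample, which allows up to 0.0722 CPM. Among oocyte markers, zp3 lay above that level, at 2.36, 2.34 and 1.91 CPM. Entries of zp2 and vtg2 had between 4 and 17 counts per sample.

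Most genes differed between the 3 samples by more than the counting of reads allows, and few stood out from genes of the same level. Of 18316 genes tested, 14308 (78.1%) varied beyond counting error at an adjusted p under 0.05 in edgeR's likelihood ratio test with Poisson error. The share was 38.7% among genes under 1 CPM and 98% among genes at 100 CPM or more. The coefficient of variation (CV, SD over mean) had a median of 15.6% over the 11867 genes at a mean of 5 CPM or more, and 15.1% after the part due to counting was removed. It was 30.0% below 1 CPM, where counting alone gives 19.4%, and 13.6% at 100 CPM or more, where counting gives 1.12%. A stricter test asked which genes varied beyond the trend, meaning beyond the dispersion fitted to all genes by level. It used edgeR's likelihood ratio test at the trended dispersion of all genes and called 202 of the 18316 genes (1.10%). Among the genes at 5 CPM or more it called 151 (1.27%), while 10553 (88.9%) varied beyond counting error. The trend lay above the spread of the median gene. At 100 CPM or more it was 21.2% as a CV, against a median CV beyond counting of 13.5%. A gene could thus spread more than most genes of its level and not be called. Sample 3 was the lowest of the 3 in 115 of the 202 called genes (56.9%), and in 37.3% of all genes tested. Sample 2 was the highest in 77 of them (38.1%, against 33.1% of all genes tested), sample 3 in 67 (33.2%, against 37.0%) and sample 1 in 58 (28.7%, against 29.9%). Samples 2 and 1 were the lowest in 54 (26.7%, against 32.1%) and 33 (16.3%, against 30.5%).

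**Figure D1:**
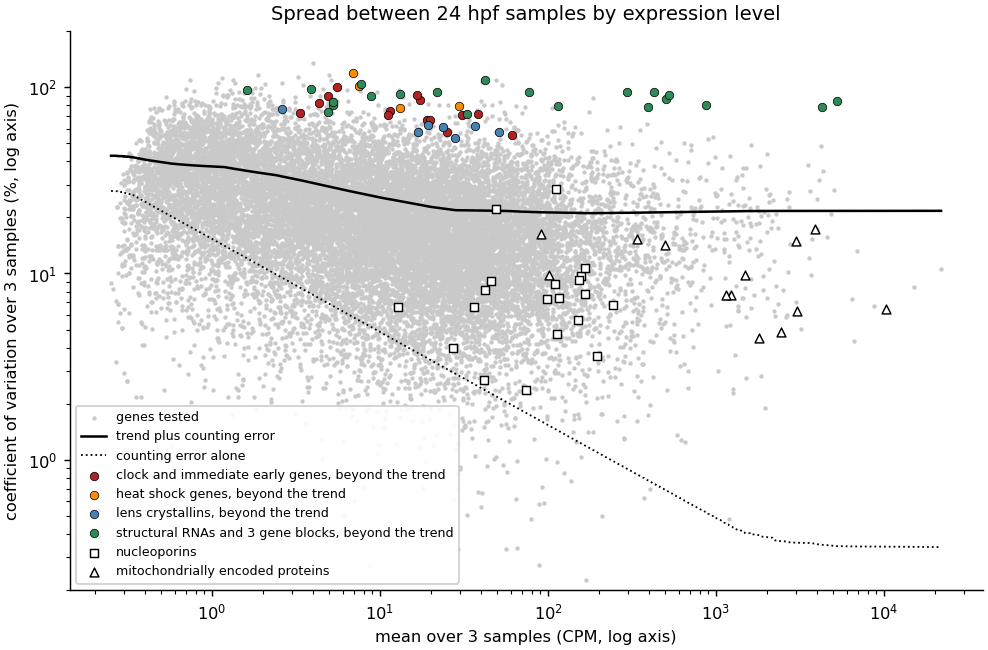
CV over the 3 samples against mean CPM for each gene tested, both on log axes, with the trend plus counting error as a running median (solid line), counting error alone (dotted line) and genes of named families that varied beyond the trend in colour. The called crystallins had CVs from 53.5% to 76.5% and the called heat shock genes from 77.5% to 119.9%, above the trend line, while nucleoporins had a median CV of 7.30%.

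Samples 1 and 2 lay nearer to each other than either lay to sample 3. The median CV of genes at 5 CPM or more was 10.3% without sample 3, 13.3% without sample 2 and 14.1% without sample 1. Among the 11867 genes at 5 CPM or more, samples 2 and 1 were at least 2-fold apart in 433 genes, with sample 2 the higher in 317 (2.67%) and the lower in 116 (0.978%). Samples 3 and 1 were at least 2-fold apart in 633 genes, with sample 3 the higher in 263 (2.22%) and the lower in 370 (3.12%). Samples 3 and 2 were at least 2-fold apart in 683 genes, with sample 3 the higher in 177 (1.49%) and the lower in 506 (4.26%). The median absolute log2 ratio was 0.21, 0.27 and 0.29 in these 3 pairs.

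To set families of different abundance side by side, each gene's CV was ranked among 250 genes on either side of it in mean count, which gives a spread percentile with a median of 49.8 over all genes tested. Of 76 gene lists, 74 had 10 or more members tested. The lists and their members were chosen with earlier results of these data known. Their percentiles and counts of called genes, here and below, are therefore descriptions and are not independent of that choice. The median percentile was 75 or more in 15 of them and 35 or less in 6. At the top stood lens crystallins (96.8), proteins of the yolk syncytial layer, liver and plasma (93.8), fast skeletal muscle (90.6) and the hatching gland (89.7). At the bottom stood nucleoporins (21.9), genes of the exocrine pancreas and intestine (25.8), mitochondrial ribosomal proteins (28.2), aminoacyl-tRNA synthetases (30.0), mitochondrially encoded proteins (32) and Hox genes (32.9). No member varied beyond the trend in 45 of the 74 lists, among them all 6 at the bottom. With 1.10% of all genes tested called, the absence of calls in a list, here and below, says little of it. The exocrine pancreas list is at the foot of the order with 1 of 11 tested members at 5 CPM or more, so it says little of those organs, and it came to 42.5 without sample 1 and 45.5 without sample 3.

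**Figure D2:**
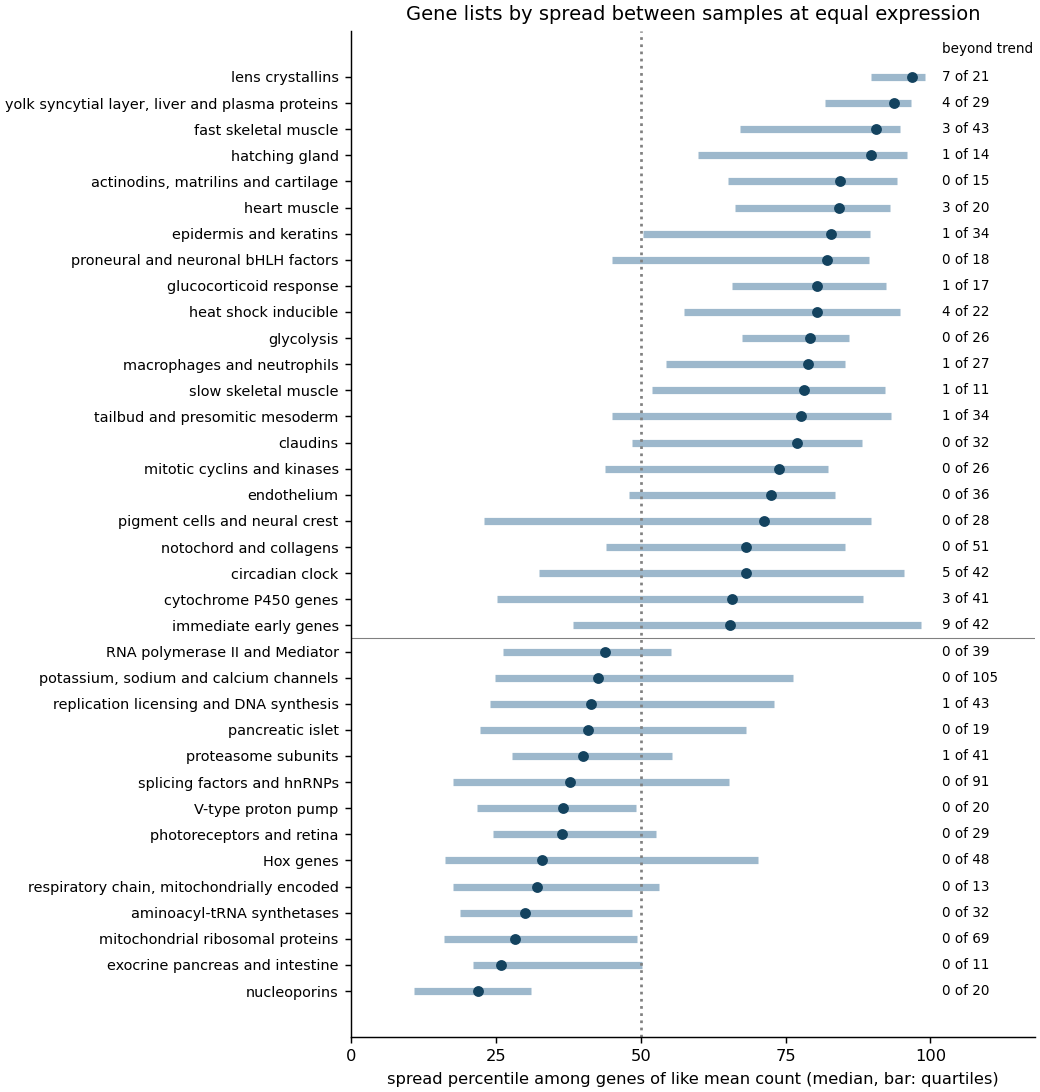
Spread percentile of the 22 highest and 14 lowest of 74 gene lists, as the median (point) and quartiles (bar) over members tested, with the number of members that varied beyond the trend at the right. Lens crystallins lie at a median of 96.8 with 7 of 21 members called, and nucleoporins at 21.9 with 0 of 20.

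With all 3 samples, the lists with the lowest spread percentiles were mostly parts of the cell's core machinery. Other parts of that machinery were not low. Glycolysis had a median percentile of 79.2, the nuclear genes of the respiratory chain 62.8 and cytosolic ribosomal proteins 57.7, against 49.8 over all genes tested. Nucleoporins, the proteins of the nuclear pore, had a median CV of 7.30%. The inner-ring and scaffold gene nup205 had 258, 225 and 245 CPM in samples 1, 2 and 3, and nupl1, a channel nucleoporin, had 76.3, 74.1 and 72.8. The most variable of the 20, the cytoplasmic-face gene nup214 (listed as A5PLH2_DANRE), had 138, 121 and 76.5 CPM and did not vary beyond the trend (adjusted p = 1). The 3 samples lay close together for the aminoacyl-tRNA synthetases, which charge tRNAs with amino acids. Lysine synthetase kars had 431, 419 and 374 CPM, and mitochondrial isoleucine synthetase iars2 had 37.1, 41.3 and 38.5. The list's median CV was 9.87% over 32 genes, and its CVs at 5 CPM or more ran from 4.58% to 31.1%. Mitochondrial ribosomal proteins had a median CV of 10.1% over 69 genes, and CVs from 1.74% to 32.6% at 5 CPM or more. Among them mrps34 had 56.9, 54.9 and 56.1 CPM, and the most abundant, mrpl37, had 74.1, 62.5 and 81.5. These low percentiles moved with the samples compared. Without sample 3 nucleoporins came to a median percentile of 46.0 and the synthetases to 46.1, and without sample 1 mitochondrial ribosomal proteins came to 45.4.

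The Hox genes, which set position along the body axis and are expressed in nested domains, lay among the steady families. Their median CV was 13.5% over 48 genes tested, of which 42 had 5 CPM or more. None of the 48 varied beyond the trend, against 1.10% of all genes tested, a share at which 0 calls say little. The posterior trunk gene hoxb9a, the most abundant, had 72.6, 70.16 and 75.5 CPM, and hoxa11b and hoxa9a had 24.5, 23.9 and 25.1 and 23.6, 24.7 and 23.7. The exception in size was hoxc6b, at 18.3, 19.8 and 6.08 CPM, low in sample 3, with a CV of 51.1% (adjusted p = 0.11). Its paralogue hoxc6a had 14.8, 13.0 and 10.4 CPM.

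At 100 CPM or more, 549 of 1579 genes had a CV under 10% and 34 had one over 50%. The 10 with the smallest CV began with zgc:114130, which had 168, 169 and 169 CPM and a CV of 0.226%, below that of counting error. Only rpl36a (0.479%) and cct3 (1.25%) of the 10 had a CV above counting error, so the order of the others says little. After zgc:114130 came rpl36a, dnaja2, mcm4, kpnb3, zgc:110801, zgc:92194, LOC560260, snrpe and cct3. These include a ribosomal protein (rpl36a, at 1188, 1198 and 1188 CPM), a co-chaperone of the Hsp40 family (dnaja2, at 212, 211 and 209.9), a subunit of the MCM helicase that unwinds DNA at replication (mcm4, at 375, 375 and 371), a nuclear import receptor (kpnb3, at 402, 405 and 399.6), a core protein of splicing snRNPs (snrpe, at 155, 158 and 156) and a subunit of the cytosolic chaperonin (cct3, at 645, 649 and 660.2). The 5 genes with the highest mean were the elongation factor ef1a (19313, 22470.3 and 23797 CPM), krt4 (13702, 16247 and 15150.0), mt-co1 (10528, 9454 and 10657), the elongation factor eef2b (8358, 8388 and 9380.0) and the constitutive chaperone hspa8 (6555, 6289 and 8003), with CVs from 6.47% to 13.3%.

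Some lists held a single member that varied beyond the trend, as did 1.10% of all genes tested. A single call says little of a list as a whole. Among 43 genes of replication licensing and DNA synthesis (median percentile 41.4), 1 varied beyond the trend. It is mcm3, another subunit of the MCM helicase, in its entry on chromosome 20 (ENSDARG00000024204), with 124, 110.4 and 37.0 CPM and an adjusted p of 0.026 at the trended dispersion. A second entry named mcm3, on chromosome 16, had 76.9, 76.0 and 150.1 CPM and did not vary beyond the trend (adjusted p = 0.57). The first was lowest in sample 3 and the second highest there, and the 2 entries together came to 201.3, 186 and 187 CPM, a CV of 4.39%. How reads were divided between such near copies by the authors' counting was not tested. In the proteasome, 1 of 41 subunits tested varied beyond the trend, zgc:92791 (PSMB10 in the table of gene names, an inducible catalytic subunit of the immunoproteasome), at 9.42, 10.4 and 1.71 CPM (adjusted p = 0.0052). The constitutive subunit psmb5 had 182, 162 and 198 CPM. Among 17 histone genes, the linker histone h1fx varied beyond the trend at 36.1, 76.1 and 17.9 CPM (adjusted p = 0.0043), highest in sample 2.

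Several clock genes, light-responsive ones among them, were low in sample 3. In the zebrafish, per2 and cry1a are transcribed in response to light and repress the CLOCK and BMAL activators, and cells of the whole embryo respond to light directly. The gene per2 had 51.01, 33.2 and 7.79 CPM in samples 1, 2 and 3, a 6.55-fold range (adjusted p = 3.9e-05 at the trended dispersion, edgeR). The cryptochrome cry1a had 66.4, 37.8 and 11.02 CPM (adjusted p = 1.1e-04). Both were lowest in sample 3 and highest in sample 1. The period gene per1b had 82.7, 77.6 and 21.97 CPM (adjusted p = 0.0081), with samples 1 and 2 close together and sample 3 apart. The flavoprotein gene cry-dash, of the cryptochrome and photolyase family, had 38.2, 26.8 and 9.66 CPM (adjusted p = 0.016), and zgc:77060, named nfil3-6 in the table of gene names and coding for a bZIP repressor, had 8.17, 3.85 and 1.06 (adjusted p = 0.0091).

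These 5 were the members of the clock list that varied beyond the trend, 5 of 42 tested against a background of 1.10%, and all 5 were lowest in sample 3. Over the list, sample 3 was the lowest in 26 of 42 and the highest in 7, against 37.3% and 37.0% of all genes tested. Other clock genes did not pass the test. The casein kinase genes csnk1da and csnk1db, whose products phosphorylate PER proteins, had 163, 195 and 202 and 106, 116 and 108 CPM, the activator arntl1a (BMAL1) had 13.4, 15.3 and 15.2, rorab, a nuclear receptor gene, had 23.1, 21.5 and 22.8 and per3 had 10.5, 12.9 and 11.4. The output gene tef, a bZIP activator, had 159, 123 and 64.9 CPM, also lowest in sample 3, and did not pass the test (adjusted p = 0.38). The list's median spread percentile was 68.2. With sample 3 left out none of its members was called, with sample 2 left out 5 were, and with sample 1 left out 2 were. The time of day and the lighting at collection are not given in the labels.

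Immediate early genes were the list with the most called members, 9 of 42 tested, against 1.10% of all genes tested. All 9 were lowest in sample 3, against 56.9% of all called genes. Sample 3 was the lowest in 30 of the whole list, against 37.3% of all genes tested. Immediate early genes are switched on within minutes of growth factor, stress or neural stimulation without new protein synthesis. The AP-1 subunit gene fos had 31.5, 16.7 and 1.34 CPM, a 23.6-fold range (adjusted p = 3.0e-11). Its partners and relatives junb and atf3 had 29.6, 25.7 and 4.68 CPM (adjusted p = 8.3e-05) and 23.7, 28.9 and 4.70 CPM (adjusted p = 1.9e-04), and zgc:92354, FOSB in the table of gene names, had 9.73, 3.95 and 1.04 (adjusted p = 0.0012). For junb and atf3, samples 1 and 2 lay near each other and sample 3 far below, while for fos the 3 samples lay apart.

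The orphan nuclear receptor genes nr4a1 and nr4a3 had 34.5, 10.4 and 7.33 CPM (adjusted p = 8.1e-04) and 11.8, 3.13 and 1.57 CPM (adjusted p = 8.3e-04), with sample 1 high and samples 2 and 3 low. The zinc finger gene egr1 had 20.9, 8.74 and 4.52 CPM (adjusted p = 0.014), LOC100331484 (ier2b in the table of gene names) had 19.6, 10.18 and 3.76 (adjusted p = 0.0093) and socs3a, an inhibitor of cytokine signalling, had 4.29, 5.20 and 0.576 (adjusted p = 0.0068). Other members had spread percentiles as low as 0.800 and 2.60, those of ier5 and btg2. The antiproliferative gene btg2 had 232, 223 and 230.1 CPM, ier5 had 183, 186 and 189, btg1 had 355, 341 and 323, the phosphatase gene dusp1 had 106, 93.5 and 96.6 and jun had 74.3, 60.6 and 63.7. The list's median percentile was 65.4, with quartiles at 38.2 and 98.3. With sample 3 left out, 2 of its members were called, with sample 2 left out 8 and with sample 1 left out 4.

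A pair of genes outside these lists, named here after their values were seen, were also lowest in sample 3. The AP-1 gene fosl1 had 26.4, 29.8 and 1.36 CPM (adjusted p = 6.8e-12). The cyclooxygenase gene ptgs2b, which makes prostaglandin precursors, had 68.0, 49.9 and 2.19 CPM (adjusted p = 4.9e-16). Among 41 cytochrome P450 genes tested, 3 varied beyond the trend, against 1.10% of all genes tested. All 3 were lowest in sample 3, as were 56.9% of all called genes. The aryl hydrocarbon receptor target cyp1a had 114, 96.5 and 7.38 CPM, a 15.4-fold range (adjusted p = 1.2e-11). The steroidogenic enzyme gene cyp11a1, which cleaves the cholesterol side chain, had 35.4, 83.5 and 21.02 CPM (adjusted p = 0.0054), and cyp24a1l had 8.34, 13.5 and 1.87 (adjusted p = 0.002). For cyp1a samples 1 and 2 were close, and for the other two sample 2 was highest. The P450 genes of retinoic acid breakdown did not vary beyond the trend, with cyp26b1 at 47.2, 35.4 and 33.6 CPM and cyp26a1 at 30.4, 24.4 and 23.5. With sample 3 left out none of the P450 genes was called, with sample 2 left out 1 was and with sample 1 left out 3 were. The glucocorticoid response list shares cyp11a1, its 1 called gene of 17 (median percentile 80.4), against 1.10% of all genes tested. Its serum and glucocorticoid kinase sgk1 had 76.5, 66.9 and 35.3 CPM and the receptor nr3c1 had 31.1, 31.3 and 28.0.

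**Figure D3:**
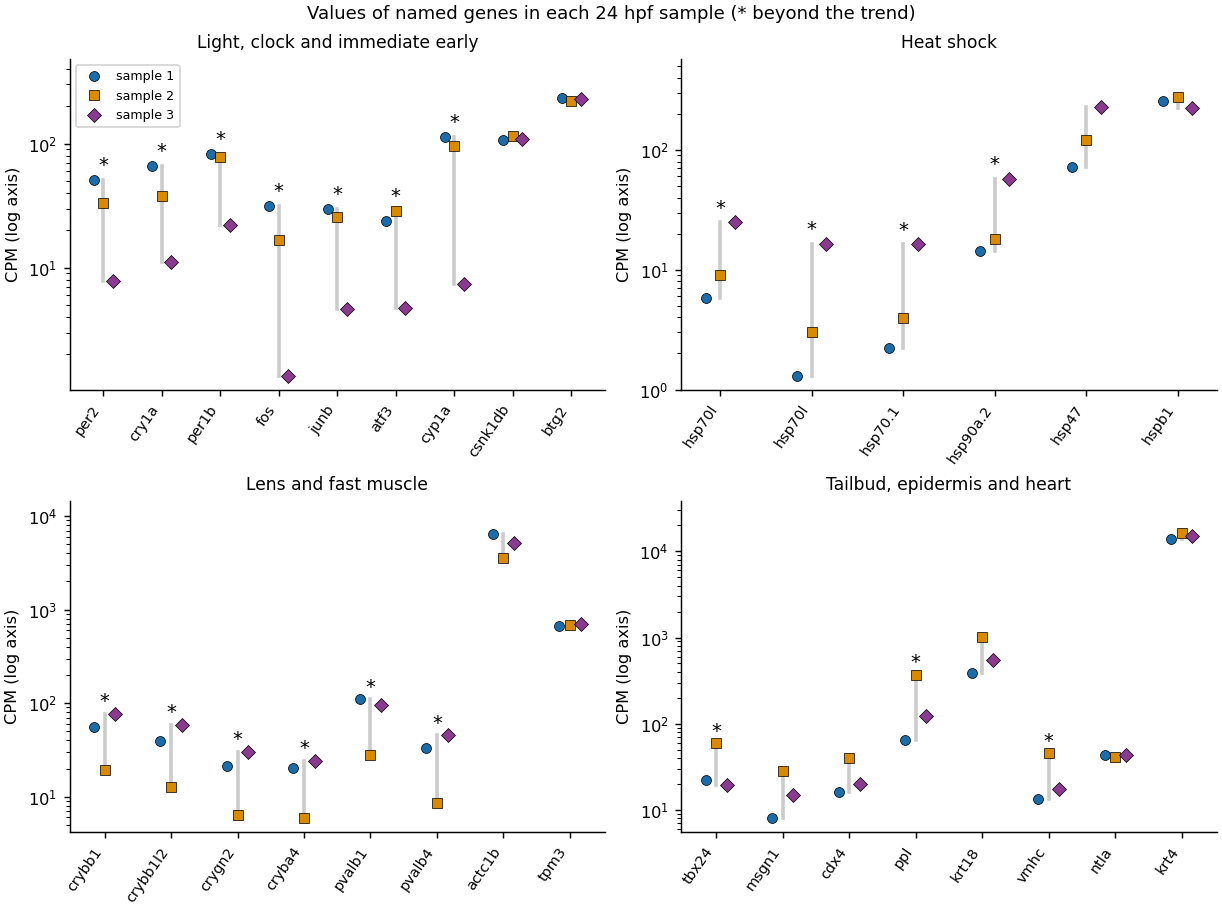
CPM of named genes in samples 1, 2 and 3 on a log axis in 4 panels, with a star over genes that varied beyond the trend. Sample 3 is the lowest for per2, cry1a, fos, junb, atf3 and cyp1a and the highest for the starred heat shock genes, sample 2 is the lowest for crystallins and parvalbumins and the highest for tbx24, ppl and vmhc, and csnk1db, btg2, tpm3, ntla and krt4 lie together.

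A few heat-inducible chaperone genes were high in sample 3. Of 22 heat shock genes tested, 4 varied beyond the trend, against 1.10% of all genes tested. Sample 3 was the highest in all 4, against 33.2% of all called genes. Over the whole list sample 3 was the highest in 9 genes and the lowest in 9, with a median difference of 0.07 on the log2 scale from the mean of the 3. An Hsp70 gene, hsp70l on chromosome 8, had 1.295, 3.03 and 16.5 CPM, a 12.7-fold range, and its CV of 119.9% was the largest among called genes at 5 CPM or more (adjusted p = 4.2e-07). A second entry named hsp70l, on chromosome 3 and listed as hsp70.3 in the table of gene names, had 5.77, 9.005 and 24.9 CPM (adjusted p = 0.0099). The ID ENSDARG00000029688 carries the symbol mcm5 in the files and hsp70.1 in the table of gene names, and it had 2.24, 3.97 and 16.3 CPM (adjusted p = 1.7e-04), while another entry named mcm5 had 337, 303 and 314. The Hsp90 alpha gene hsp90a.2 had 14.2, 17.9 and 57.0 CPM (adjusted p = 0.0011). In each of the 4 sample 1 was the lowest and sample 3 the highest. Reads shared between near-identical Hsp70 copies make the values of single copies uncertain.

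The collagen chaperone gene hsp47 had 72.5, 121 and 228 CPM, also highest in sample 3, and did not pass the test (adjusted p = 0.057). The small heat shock gene hspb1 had 256, 274 and 225 CPM, and the regulators hsf1 and hsf2 had 16.4, 20.9 and 16.9 and 44.5, 39.9 and 22.7. Outside the list, hspa8l, a further Hsp70 gene, had 3.13, 3.42 and 12.7 CPM (adjusted p = 0.022), and egln3, an oxygen-sensing prolyl hydroxylase gene, had 3.16, 2.41 and 13.4 CPM (adjusted p = 0.0021). Subunits of the cytosolic chaperonin, which folds actin and tubulin in unstressed cells, did not vary beyond the trend. Of these, cct4 and cct5 had 675, 682 and 790.5 and 543, 563 and 637 CPM. In the list of the chaperonin and constitutive chaperones, sample 3 was the highest in 15 of 17 genes and the lowest in 0. Over all genes tested these shares were 37.0% and 37.3%. The 1 member called there was hspa8l, against 1.10% of all genes tested. The heat shock list's median percentile was 80.4. With sample 3 left out none of its members was called, with sample 2 left out 5 were, and with sample 1 left out 1 was.

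Most genes listed for the yolk syncytial layer, liver and plasma were lowest in sample 3. The yolk syncytial layer, with its nuclei at the yolk surface, packages yolk lipid into lipoproteins before the liver takes over. Of 29 genes tested, sample 3 was the lowest in 24, against 37.3% of all genes tested, and the median of log2(CPM + 1) in sample 3 lay -0.49 from the mean of the 3. Varying beyond the trend were 4, against 1.10% of all genes tested. All 4 were lowest in sample 3, as were 56.9% of all called genes. The gene mtp, whose product loads lipid onto apolipoprotein B, had 30.9, 44.2 and 8.74 CPM (adjusted p = 9.9e-04). The peptidase gene ctsc (cathepsin C) had 329.6, 664 and 178 CPM (adjusted p = 0.012), the copper protein gene cp (ceruloplasmin) had 27.0, 15.8 and 6.55 (adjusted p = 0.027) and the yolk precursor gene vtg1 (vtg4 in the table of gene names) had 3.23, 3.64 and 0.415 (adjusted p = 0.018).

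The most abundant member, apobl, an apolipoprotein B gene, had 5126, 5716 and 1883 CPM (adjusted p = 0.085), and transferrin, tfa, had 2112, 2355 and 1043 (adjusted p = 0.52). The fibrinogen chain genes fgb and fgg had 121, 90.7 and 55.9 and 101, 62.1 and 61.8 CPM. The apolipoprotein genes apoeb, at 2565, 2674 and 2280.0 CPM, and apoa1, at 2979.5, 2483 and 2544, had CVs of 8.11% and 10.1%. With sample 3 left out none of the list's members was called, with sample 2 left out 1 was and with sample 1 left out 2 were.

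Most hatching gland, heart and phagocyte genes were also lowest in sample 3. The hatching gland makes the enzymes that dissolve the egg envelope. Its main enzyme gene he1a had 1273, 1263 and 360.4 CPM (adjusted p = 0.011), with samples 1 and 2 alike and sample 3 far below them. The second enzyme gene he1b had 387, 424 and 246 CPM. The cathepsin gene ctsl1b has 5 entries of that name, and reads could be split among them, so their separate values are uncertain. The highest had 1148, 1039 and 496 CPM (adjusted p = 0.43), and sample 3 was lowest in all 5. Secretory genes that the gland shares with other cells were level, with the transcription factor xbp1 at 329, 346 and 368 CPM and the cargo receptor tmed2 at 286, 281 and 288. The gland's list had a median percentile of 89.7 over 14 genes, and he1a was its 1 called member, against 1.10% of all genes tested. Without sample 3 that percentile was 52.7. With sample 1 or sample 3 left out no member was called, and with sample 2 left out 2 were.

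In the heart list sample 3 was lowest in 15 of 20 genes, against 37.3% of all genes tested. In that list 3 varied beyond the trend, against 1.10% of all genes tested. These 3 did not share an order. Ventricular myosin, vmhc, had 13.5, 46.0 and 17.3 CPM (adjusted p = 0.015) and was high in sample 2, the troponin I gene tnni1b had 18.9, 15.8 and 4.70 (adjusted p = 0.038) and was low in sample 3, and the natriuretic peptide gene nppa had 2.64, 0.289 and 0.530 (adjusted p = 0.015) and was high in sample 1. The atrial and ventricular light chain gene myl7 had 49.6, 39.8 and 30.7 CPM. Left out in turn, samples 1, 2 and 3 gave 0, 0 and 2 called members. In the list of macrophages and neutrophils sample 3 was lowest in 21 of 27 genes, against 37.3% of all genes tested. The collagenase gene mmp13a had 5.65, 7.01 and 0.715 CPM (adjusted p = 0.0014), and was the 1 member called, against 1.10% of all genes tested. Left out in turn, samples 1, 2 and 3 gave 1, 1 and 0 called members. The neutrophil peroxidase mpx had 6.64, 4.65 and 5.58 and the actin regulator coro1a had 9.49, 8.96 and 7.72.

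Lens crystallins had the highest median spread percentile of the 74 lists and were low in sample 2. These are the structural proteins that fill the fibre cells of the lens and make it refract. Of 60 crystallin IDs in the count tables, 21 were tested, and 7 varied beyond the trend, against 1.10% of all genes tested. Each of the 7 was lowest in sample 2, against 26.7% of all called genes. Over the 21, sample 2 was the lowest in 15, against 32.1% of all genes tested, and the highest in 4. Sample 1 was the lowest in 6. The beta crystallin gene crybb1 had 56.0, 19.4 and 77.1 CPM in samples 1, 2 and 3 (adjusted p = 0.011). Its paralogues crybb1l2 and crybb1l1 had 39.4, 12.8 and 58.2 CPM (adjusted p = 0.003) and 28.8, 7.42 and 34.9 CPM (adjusted p = 0.0021). Sample 2 was lowest and sample 3 highest in each of the 3 genes. The acidic and basic members cryba1b and cryba4 had 32.2, 11.3 and 40.4 CPM (adjusted p = 0.03) and 20.2, 5.92 and 24.3 CPM (adjusted p = 0.019). Among gamma crystallins crygn2 had 21.2, 6.40 and 30.3 CPM (adjusted p = 0.0049) and crygm2d8, one of many near-identical gamma M copies and so uncertain, had 3.04, 0.433 and 4.36 (adjusted p = 0.011).

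The list's median CV was 55.8%, and its median log2(CPM + 1) lay 0.34, -0.96 and 0.50 from the mean of the 3 in samples 1, 2 and 3. The entry AIM1 (1 of 2), named crybg1a in the table of gene names and related to crystallins by its fold, had 15.2, 28.4 and 16.1 CPM, with sample 2 the highest. Lens membrane channel mipa, outside the list and named after its values were seen, had 15.5, 3.47 and 19.8 CPM (adjusted p = 0.0022). With sample 2 left out the list's median percentile was 53.4, against 96.8 with all 3 samples. None of the crystallins was then called, while with sample 1 left out 7 were and with sample 3 left out 6 were.

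Fast muscle was also low in sample 2. Of 43 genes tested, sample 2 was the lowest in 33, against 32.1% of all genes tested. In this list 3 varied beyond the trend, against 1.10% of all genes tested. All 3 were parvalbumins, the calcium buffers that speed relaxation. Parvalbumin pvalb4 had 32.8, 8.57 and 45.2 CPM (adjusted p = 5.1e-04), pvalb1 had 109.6, 27.8 and 96.1 (adjusted p = 0.0055) and pvalb2 had 392, 137 and 424 (adjusted p = 0.047). In each, sample 2 lay far below both other samples. The bulk proteins of the contractile apparatus had the same low sample and did not pass the test. The actin actc1b had 6361, 3553 and 5178 CPM, the calcium pump atp2a1 5065, 2466 and 3112, the myosin light chain mylz2 1959.5, 1161 and 2929.7 and the creatine kinase ckmb 1919, 878 and 1757.

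Within the fast muscle list the spread was uneven. The tropomyosin gene tpm3 and ryr1b, the calcium release channel of the sarcoplasmic reticulum, had 667, 688 and 699 and 79.4, 70.4 and 78.1 CPM, and the fast myosin entry myhz2 had 294, 279.6 and 355, though reads shared among the myosin heavy chain copies make that value uncertain. The list's median percentile was 90.6. With sample 2 left out, so that samples 1 and 3 were compared, it was 42.4 and none was called. Embryonic globins, which colour the first red cells, were lowest in sample 2 in 8 of 9 genes, against 32.1% of all genes tested. Among them hbae3 had 555, 363 and 488 CPM and hbbe3 had 487, 321 and 483, and none of the 9 varied beyond the trend. The fin fold and cartilage list had a median percentile of 84.4 (54.2 without sample 2), also with no call, and its actinodin gene and1 (listed as LOC794315), which builds the first fin rays, had 19.7, 5.63 and 17.0 CPM (adjusted p = 0.09).

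**Figure D4:**
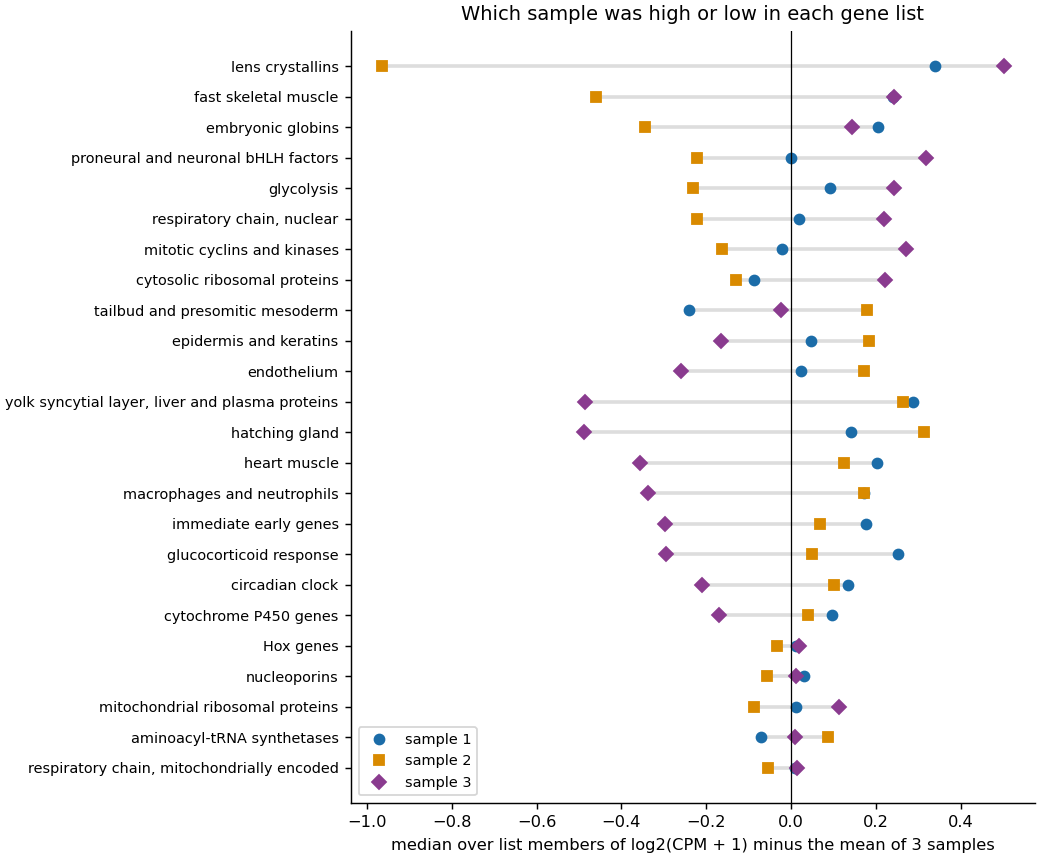
Median over list members of log2(CPM + 1) minus the mean of the 3 samples, for samples 1, 2 and 3 in 24 gene lists. Sample 2 lies lowest in lens crystallins and fast skeletal muscle, sample 3 lies lowest in the yolk layer and hatching gland lists, and in Hox genes the 3 samples lie at 0.01, -0.03 and 0.02.

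Tailbud genes were high in sample 2, where lens and fast muscle were low. The tailbud and presomitic mesoderm hold the cells from which the last somites form. In 21 of 34 such genes sample 2 was the highest, against 33.1% of all genes tested, and in 22 sample 1 was the lowest, against 30.5%. The T-box gene tbx24, needed for somite borders, had 22.2, 60.2 and 19.5 CPM (adjusted p = 0.023). It was the 1 member of 34 to vary beyond the trend, against 1.10% of all genes tested. The presomitic factor msgn1 had 8.13, 28.3 and 15.1 CPM (adjusted p = 0.083), the caudal gene cdx4 had 16.3, 40.4 and 20.3 (adjusted p = 0.29) and the oscillating repressor her1 had 4.004, 10.3 and 5.12 (adjusted p = 0.65). The notochord and tailbud gene ntla had 43.4, 41.3 and 43.0 CPM, and the Notch modifier lfng, the most abundant member and also expressed outside the tailbud, had 279, 224 and 359. Left out in turn, samples 1, 2 and 3 gave 0, 0 and 2 called members.

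Skin was also highest in sample 2 in 19 of 34 genes, against 33.1% of all genes tested. The plakin gene ppl, a linker of desmosomes and keratin, had 64.7, 371 and 122 CPM, a 5.74-fold range (adjusted p = 1.1e-05). It was the 1 member of 34 called, against 1.10% of all genes tested. With sample 1 or sample 2 left out no member was called. The desmosomal gene dspa had 67.1, 176 and 72.6 CPM (adjusted p = 0.084) and the simple-epithelium keratin krt18 had 384, 1013 and 546 (adjusted p = 0.21), in the same order as ppl. The most abundant, krt4, and the claudin cldni had 13702, 16247 and 15150.0 and 358, 321 and 342 CPM. Claudins, the strands of tight junctions, had a median percentile of 76.9 and no call, with cldnb at 218, 239.6 and 96.6 CPM. In slow muscle, where fibres mature first, the myosin smyhc1 had 743, 1265 and 986 CPM, highest in sample 2. So was smyhc3, at 19.97, 56.5 and 34.1, reads of these tandem copies being uncertain. The slow muscle list as a whole had no common direction. Of its 11 genes tested, sample 2 was the highest in 5 and the lowest in 3, against 33.1% and 32.1% of all genes tested. The troponin I gene tnni1b, described with the heart, was the 1 of 11 slow muscle genes called, against 1.10% of all genes tested.

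Several further lists had differences that ran the same way in most members. The median log2 difference of sample 3 from the mean of the 3 was 0.22 for nuclear respiratory genes and 0.27 for mitotic genes. It was 0.24 for glycolysis, 0.32 for proneural factors and -0.26 for endothelial genes. In 81 of 101 nuclear genes of the respiratory chain sample 3 was the highest, against 37.0% of all genes tested, and in 81 sample 2 was the lowest. The ATP synthase subunit gene zgc:111961 (ATP5F1B) had 1167, 954 and 1235 CPM. Sample 3 was the highest in 75 of 92 entries of the list of cytosolic ribosomal proteins, with rpl3 at 3483, 3686 and 4765 CPM, and in 23 of 26 mitotic cyclins and kinases, with plk1 at 198, 186 and 288 and the spindle gene TPX2 at 119, 208 and 259. None of these 101, 92 and 26 genes varied beyond the trend, against 1.10% of all genes tested. Glycolysis was lowest in sample 2 in 18 of 26 genes, against 32.1% of all genes tested. Its gapdh had 816, 592 and 869 CPM and the muscle aldolase aldoab had 596, 355 and 694. Proneural factors, which commit cells to a neuronal fate, had a median percentile of 82.1 and a median CV of 27.2%. They were lowest in sample 2 in 14 of 18 genes and highest in sample 3 in 12. Among them neurod4 had 47.0, 45.9 and 72.4 CPM and neurog1 had 43.7, 35.7 and 55.1. Endothelial genes were lowest in sample 3 in 21 of 36, against 37.3% of all genes tested. The VEGF receptor kdr had 29.6, 57.0 and 17.8 CPM (adjusted p = 0.067).

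A few abundant structural RNAs were among the most variable genes, with sample 2 low and sample 3 high. Messenger RNA libraries are made from RNA with a poly(A) tail, which most ribosomal and other structural RNAs lack. The RNA of the signal recognition particle, rn7sl1, had 57.6, 15.8 and 158 CPM (adjusted p = 1.4e-08). The regulator of transcription elongation rn7sk had 16.8, 4.14 and 44.3 CPM (adjusted p = 7.5e-08), and the RNA of RNase P, rpph1, had 5.20, 1.25 and 16.6 (adjusted p = 2.7e-06). The 5.8S rRNA gene at chr4:61299023-61299179 on Zv9 had 256, 138 and 882 CPM (adjusted p = 1.4e-06). In all 4 sample 2 was lowest and sample 3 highest. The noncoding list holds 828 IDs, most of them too low to test. Of 40 tested, 5 varied beyond the trend, against 1.10% of all genes tested. They are the 4 above and SNORA73, a small nucleolar RNA, at 1.13, 0.361 and 3.37 CPM. The list was changed after values were seen, so its counts are not independent of that choice. The list as a whole had a median spread percentile of 56.0, with sample 2 the lowest in 15 of the 40 and sample 3 the highest in 19. Left out in turn, samples 1, 2 and 3 gave 5, 1 and 2 called members.

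The same pattern held in 3 dense blocks of mostly unnamed genes, chosen after their values were seen. The block at chr20:55774137-55791666 holds 13 tested genes, of which 10 varied beyond the trend, against 1.10% of all genes tested. Its main gene, wu:fb11d11, had 4893, 987 and 9796 CPM (adjusted p = 9.5e-08). The block at chr4:61294795-61299179 holds the 5.8S gene and 4 others, all 5 called, and the one at chr4:49787860-49793048 holds 3 tested genes with 2 called. Sample 2 was the lowest in all 21 genes of the blocks, against 32.1% of all genes tested. Sample 3 was the highest in 18, against 37.0%. These counts are not independent of the choice of the blocks, and some of the short genes lie within longer ones. Together the blocks took 1.19%, 0.286% and 2.30% of the counts on genes in samples 1, 2 and 3. Non-unique alignments took 21.1%, 14.2% and 27.6% of the counter's total in samples 1, 2 and 3, with sample 2 lowest and sample 3 highest as well, and their part in the result was not tested.

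The mitochondrial genome held genes of both kinds. The unnamed gene at chrMT:1019-1971 had 300.2, 177 and 581 CPM (adjusted p = 0.039), with sample 2 low and sample 3 high as at the nuclear loci. The unnamed gene at chrMT:2042-3725 had 487, 272 and 362 (adjusted p = 1). Sample 2 was instead the highest in the short unnamed genes at chrMT:6177-6250 and chrMT:6282-6354. They had 5.13, 8.50 and 6.27 and 2.64, 7.63 and 2.81 CPM, and neither varied beyond the trend. The 13 protein genes of the same genome had a median CV of 9.81% and none was called, against 1.10% of all genes tested. Cytochrome oxidase subunit gene mt-co1 had 10528, 9454 and 10657 CPM. The complex I subunit gene mt-nd1 had 1869.9, 1709 and 1794 and the ATP synthase subunit gene mt-atp6 had 2382, 2334 and 2557. The largest CV of the 13 was 17.4%, that of mt-co3, at 3749, 3254 and 4582 CPM.

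**Figure D5:**
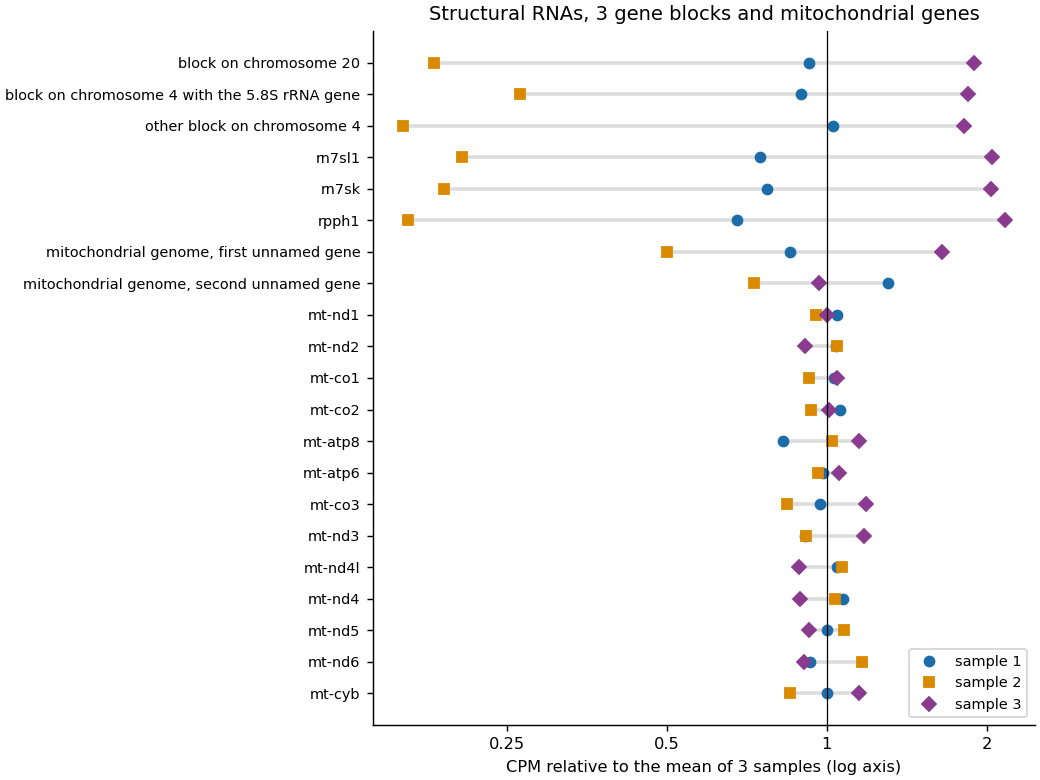
CPM relative to the mean of the 3 samples, on a log axis, with samples 1, 2 and 3 as separate symbols. Shown are the 3 blocks of mostly unnamed genes (summed over genes, 1 of them with the 5.8S rRNA gene) and 3 named structural RNAs. From the mitochondrial genome, the 13 protein genes and the unnamed genes at chrMT:1019-1971 and chrMT:2042-3725 are shown. Sample 2 is lowest and sample 3 highest at the nuclear loci, while the 13 mitochondrial protein genes lie close to 1.

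Among the 25 genes of 5 CPM or more with the largest CV beyond counting, 6 lie in the 3 blocks, and others named above are hsp70l, hsp70.1, rpph1, rn7sl1, rn7sk, nr4a3, egln3, fos and ppl. The rest fell into several orders. Low in sample 3 and highest in sample 2 was zgc:154020 (irg1l, a relative of the enzyme that makes itaconate in inflamed tissue), at 37.8, 107 and 1.84 CPM (adjusted p = 3.1e-21), and so were LOC570542 (STAMBPL1, a deubiquitinase gene), at 7.58, 27.4 and 4.03 (adjusted p = 5.3e-05), and the transporter LOC555258 (slc47a4), at 6.85, 19.7 and 2.26 (adjusted p = 5.4e-05). High in sample 1 and lowest in sample 3 were LONRF1, a RING finger gene, at 89.8, 24.2 and 7.68 CPM (adjusted p = 3.5e-10), zgc:153911 at 11.3, 3.25 and 0.691 (adjusted p = 5.3e-06) and the sugar cotransporter slc5a9 at 9.33, 6.36 and 0.277 (adjusted p = 7.0e-08). High in sample 1 alone was zgc:113413 (aep1, an aerolysin-like protein gene), at 117, 20.2 and 23.2 CPM (adjusted p = 3.2e-07). High in sample 3 were LOC794824 (igldcp) at 2.14, 2.29 and 11.5 CPM (adjusted p = 0.0021), PRTG (2 of 2), an entry named for protogenin, at 2.83, 11.6 and 26.7 (adjusted p = 8.6e-06) and the unnamed ENSDARG00000087459 at 5.13, 1.95 and 15.8 (adjusted p = 2.5e-04).

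The spread was set beside change over stages, measured in libraries that did not enter it, the 5 day larva and the 16-36 hpf embryo pool, with 1 library each. Of the genes at 5 CPM or more, 202 were at least 4-fold higher in the larva than in the pool, and their median spread percentile at 24 hpf was 57.4. For 484 genes at least 4-fold lower in the larva it was 63.6, and for 11032 genes that changed less it was 49.0. Varying beyond the trend were 7, 22 and 108 genes of these groups, which is 3.47%, 4.55% and 0.979%. The larva-high genes had median differences from the mean of the 3 samples of 0.09, -0.10 and -0.01 on the log2 scale in samples 1, 2 and 3, and the larva-low genes had -0.01, 0.00 and 0.07. The lists described above lay on both sides of this axis. The median log2 difference of larva over pool was 1.61 for lens crystallins, 0.64 for fast muscle, -1.92 for tailbud genes, -2.18 for mitotic genes and -4.74 for the hatching gland, with a median over all genes tested of -0.13.

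Transcript length, estimated per gene from deposited counts and FPKM, ran with the level in sample 2. The estimate took the reads counted on genes as the library total. If the authors' FPKM was scaled to more reads, the bases come out too high, so they serve only to order genes. Over 5 classes of 2363 or 2364 genes with median lengths of 1363, 2202, 3013, 4214 and 6975 bases, the median difference of sample 2 from the mean of the 3 samples was -0.06, -0.02, 0.02, 0.07 and 0.11 on the log2 scale, and the median spread percentile was 45.4, 45.4, 47.8, 51.4 and 59.0. Sample 1 had 0.04 in the shortest class and -0.03 in the longest, and sample 3 had 0.04 and -0.06. Its part in the results of single lists was not tested. The lens crystallins at 5 CPM or more had a median estimate of 1384 bases and fast muscle one of 2094. Heat shock genes had 2466, clock genes 3767 and nucleoporins 3611.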

How the data were processed

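Total RNA of whole zebrafish embryos of the AB strain at 24 hpf was extracted with TRIzol and made into messenger RNA libraries with a TruSeq kit, per the labels' protocols. The submitters' processing notes name, without role or order, the build Zv9, Cufflinks 1.3.0, HTSeq 0.5.3p3, TopHat 1.4.1, Bowtie 0.12.7 and CASAVA 1.4. Not given in the sources used here are the annotation release, the strand setting and whether the 4 records of a sample were pooled. Raw counts per gene, which the authors deposited, were used for all tests. The authors' FPKM values per gene, as deposited, served as an alternative and, with the counts, for an estimate of transcript length. Many mitochondrial and short genes are listed at 0 FPKM in the deposited tables. Counter lines that name no gene were left out of library sizes. Reads in no feature made up 12.3%, 13.3% and 10.4% and reads without a unique alignment 21.1%, 14.2% and 27.6% of the counter totals in samples 1, 2 and 3.

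The 3 libraries were read in R 4.3.3 with edgeR 4.0.16, filtered with a minimum count of 10 and scaled by TMM. Variation beyond counting error was tested with edgeR's likelihood ratio test of library at a dispersion of 0, and variation beyond the trend with the same test at the trended dispersion of an intercept-only fit, both with Benjamini-Hochberg adjustment over 18316 genes and a threshold of 0.05. The code was also tested on simulated data. These tests compare libraries and not conditions. The spread percentile ranks a gene's CV among the 250 genes on each side in mean count. Log2 values have a pseudocount of 1 CPM. The 3 counts that a count of 0 allows cover counting error only. The larva and the 16-36 hpf pool had 1 library each. DESeq2 1.42.0 gave alternative size factors and dispersion outliers.

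Genes named are the 25 at 5 CPM or more with the largest CV beyond counting among those past the trend. Named too are the 10 with the smallest CV at 100 CPM or more and the 5 with the highest mean. In the lists described, they include members past the trend. They also include members with the highest mean or the highest or lowest CV at 5 CPM or more, not all printed for each list. Other genes named, the changes to the noncoding RNA list, the 3 chromosomal blocks and the mcm3 pair were chosen after values were seen. The members and lists were chosen with earlier results of these data known. List genes were matched by the symbol in the files (2919) or by the table of gene names alone (1837), which holds 14399 of the tested IDs, and 1008 tested IDs have no symbol in the files. Coordinates are on Zv9 as the files give them.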

Additional observations from a re-analysis of the deposited data

How the results depend on the processing

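No paired analysis was possible because the 24 hpf embryos are the only group with replicates. The number of genes varying beyond the trend was 202 with all 3 samples and 86 to 106 with 1 sample left out, and 106, 81 and 66 of the 202 were shared without samples 1, 2 and 3. With the dispersion outliers of DESeq2 it was 55, all 55 of them among the 202. It was 197 with library totals, 200 with DESeq2 size factors, 248 with no filter and 256 with edgeR's common dispersion. The median CV of genes at 5 CPM or more was 10.3% to 14.1% with 1 sample left out, against 15.6% with all 3. The number of lists at a median percentile of 75 or more was 6 to 13, against 15. With 1 sample left out, the median percentile of glycolysis was 46.0 to 82.5, that of fast skeletal muscle 42.4 to 92.4 and that of macrophages and neutrophils 41.6 to 81.5, the low end being without sample 2 for the first pair and without sample 3 for the last, on the other side of 50. With deposited FPKM, only genes at a mean of 1 FPKM or more were ranked. Of the 13 mitochondrially encoded proteins, mt-atp6 alone met this, at 5.17, 9.53 and 4.19 FPKM in samples 1, 2 and 3. The 91.8 of that list is thus the value of 1 gene. Exocrine pancreas and intestine came to 53, for which the cause was not tested. With no filter the median difference from the mean of the 3 samples was 0.19 for proneural factors in sample 3, -0.058 for actinodins, matrilins and cartilage in sample 2, -0.22 for macrophages and neutrophils and -0.38 for yolk proteins in sample 3, and -0.27 for lens crystallins in sample 2, each smaller than with the filter, where low genes were left out. Of the other values that summarise a comparison, 89 did not move beyond the spread or by over 1.5 times. Among the median percentiles of single lists 17 further values moved, 16 of them with a sample left out. They include lens crystallins at 53.4 and actinodins at 54.2 without sample 2, and hatching gland at 52.7, nucleoporins at 46.0 and aminoacyl-tRNA synthetases at 46.1 without sample 3. With deposited FPKM the noncoding RNAs at a mean of 1 FPKM or more came to 99.4. Library totals shifted the median of all genes by 0.03, 0.03 and -0.04 on the log2 scale in samples 1, 2 and 3. Below 1 CPM the depth limits what can be seen, since counting alone gives a CV of 19.4% there.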

Other observations

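Neighbouring genes on chromosome 14 shared a pattern between the samples, noticed after their values were seen. The gene zgc:154020 (irg1l) at chr14:11625681-11629184 on Zv9 had 37.8, 107 and 1.84 CPM in samples 1, 2 and 3. The next genes along the chromosome, LOC565377 at chr14:11649672-11655264 and LOC565309 at chr14:11656672-11659628, had 32.3, 41.2 and 2.30 CPM (adjusted p = 1.6e-11, edgeR at the trended dispersion) and 60.6, 117.8 and 15.6 CPM (adjusted p = 3.1e-06). All 3 genes were highest in sample 2 and lowest in sample 3. The gene before them, zgc:112315 at chr14:11594057-11598202, had 11.4, 10.7 and 11.9 CPM and did not vary beyond the trend (adjusted p = 1).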
